A study of Mus musculus with 6 samples.

Results

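Axon guidance ligands and receptors were examined in the cochlear epithelium of the mouse with and without Notch inhibition. The set comprised 51 genes of the Eph and ephrin, semaphorin and plexin, Slit and Robo, and netrin families, picked by their symbols. Of these, 48 were measured among 20259 genes with a transcript cluster of their own, a cluster being the group of exon probes that the array reads as 1 transcript. *Ephb2* had no named cluster in the annotation used here, and *Ephb6* and *Nrp2* shared theirs with another gene, so these 3 were not analysed here. DAPT explants were kept in 3.33 µM DAPT, an inhibitor of γ-secretase, which cuts Notch receptors and releases their active part. Control explants were kept in 0.013% DMSO, the vehicle. All explants were wild type, kept in the same medium with N2 supplement, EGF and FGF, taken at embryonic day 15.5 with the innervating neurons attached, and each of 3 experiments gave 1 DAPT pool and 1 control pool after 23, 19 and 24 hours of culture (experiments 1, 2 and 3). The epithelial duct was purified enzymatically before RNA was extracted, and 6 Affymetrix exon arrays were read.

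Guidance molecules steer growing axons and also position cells at tissue borders. Ephrins are bound to the membrane and signal on contact, the A class through a lipid anchor and the B class through a transmembrane domain, and Eph receptors are the tyrosine kinases that bind them. Semaphorins act through plexins, and those of class 3 are secreted and mostly need a neuropilin as co-receptor. Slits are secreted and repel through Robo receptors, whereas netrins attract through Dcc and repel through Unc5 receptors. In the cochlea such cues are known for guiding the fibers of spiral ganglion neurons toward hair cells (HCs).

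At an unadjusted p under 0.05 in limma, a linear model for arrays, 8 of 10 Notch effectors were lower with DAPT and 1 was higher (*Hes6*, 0.44), and 12 of 12 HC genes were higher, while none passed an adjusted p of 0.05. *Dtx1*, the other effector, had a difference of 0.16 (standard error 0.07). By the same unadjusted threshold 2.59% of all genes were lower and 5.27% were higher. *Hey1*, a Notch target, had 9.52, 9.42 and 8.74 on the log2 signal scale in the DAPT pools of experiments 1, 2 and 3, against 10.62, 10.45 and 10.50 in the control pools, a difference of −1.29 (standard error 0.15). *Jag1*, a Notch ligand and target gene, averaged 10.06 ± 0.25 in DAPT and 11.30 ± 0.17 in control pools (SD, n = 3 each), a difference of −1.24 (standard error 0.09). *Atoh1*, which encodes a transcription factor needed to make HCs, averaged 11.59 ± 0.22 in DAPT and 10.41 ± 0.17 in control pools (SD, n = 3 each), a difference of 1.18 (standard error 0.08). The adjusted p in limma was 0.129 for *Hey1* and 0.0591 for both others. Epithelial markers were present, with *Epcam* at 10.29 to 10.69 in DAPT and 10.48 to 10.73 in control pools. Markers of mesenchyme, endothelium and neurons were read as well (*Pou3f4*, *Cdh5* and *Nefl*). Array signals have no true zero, so these levels do not give shares of cells. In bulk tissue fewer cells of a type and less RNA per cell cannot be told apart. Most of the Notch effector and HC genes counted here were already listed by the paper as changed on these same arrays. Both lists were chosen with earlier results known, so their counts are no independent check of the treatment.

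None of the 48 guidance genes passed an adjusted p of 0.05 in limma, fitted over the 20259 genes with a block for each experiment (adjusted p = 0.474 at the lowest). The background was equally empty, with 0.0% of all genes past that threshold and a lowest adjusted p of 0.0591. At an unadjusted p under 0.05, 1 guidance gene was higher with DAPT (2.08%, background 5.27%) and 1 was lower (2.08%, background 2.59%). The median difference, DAPT minus control, was 0.02 on the log2 scale for the guidance genes and 0.02 for all genes. The differences of the guidance genes lay between −0.25 and 0.21. The median of their sizes was 0.08, beside 0.07 for all genes.

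The intervals of the differences give the size of change in array signal that these data leave room for. For all 48 genes the 95% interval in limma lay within a 1.5-fold change in either direction, the outermost bounds being 0.719-fold and 1.39-fold. Of the 48, 17 lay below the median signal of all genes. *Epha6* (mean 5.49 in DAPT and 5.53 in control pools) and *Dcc* (5.98 and 5.91) lay below the array medians of all clusters (6.297 to 6.364). A weak signal can be mostly background, and a narrow interval there does not bound a change in expression. Standard errors were 0.07 to 0.13 on the log2 scale. Each interval stands for 1 gene, rests on 3 pairs with the variance pooled across genes, and was not widened for the number of genes. With 3 pairs a sign-flip permutation test of a single gene cannot go below p = 0.25.

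**Figure D1:**
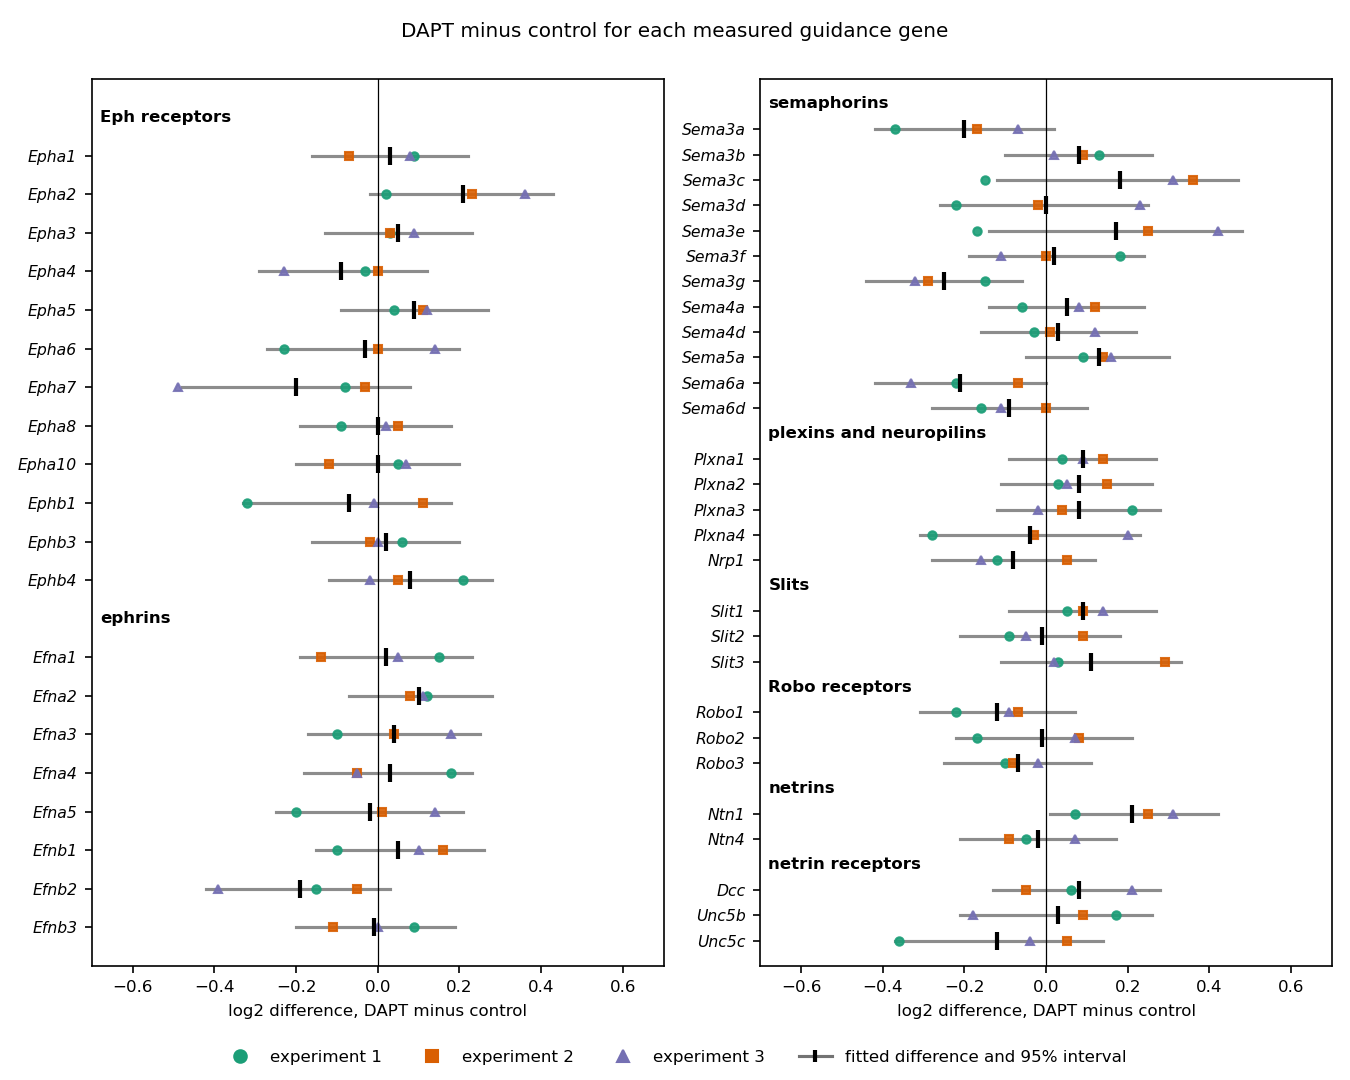
Log2 difference, DAPT minus control, for the 48 measured guidance genes, grouped by subfamily. Points are the 3 experiments, black ticks the fitted differences and grey lines their 95% intervals, which all lie within a 1.5-fold change (0.58 on this scale). The interval stays below 0 for *Sema3g* and above 0 for *Ntn1*.

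By family the median differences lay between −0.01 and 0.03, beside 0.02 for all genes. Across the array 11448 of 20259 genes were above 0 and 8811 below. The unadjusted threshold was passed upward by 5.27% of all genes and downward by 2.59%. Of 20 Eph and ephrin genes, 12 were above 0 and 8 below, with a median of 0.02 and none at an unadjusted p under 0.05. Of 17 semaphorin, plexin and neuropilin genes, 10 were above and 7 below, with a median of 0.03 and 1 gene lower. Of 6 Slit and Robo genes, 2 were above and 4 below, with a median of −0.01 and no gene past the threshold. Of 5 netrin genes, 3 were above and 2 below, with a median of 0.03 and 1 gene higher. The 25 ligands had a median of 0.03 and a range from −0.25 to 0.21, and the 23 receptors had a median of 0.00 and a range from −0.20 to 0.21.

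*Sema3g*, a secreted class 3 semaphorin known from blood vessels, was the guidance gene with the smallest p. Its log2 signal was 7.07, 7.34 and 7.64 in the DAPT pools of experiments 1, 2 and 3, against 7.22, 7.63 and 7.96 in the control pools. The DAPT pool was the lower of the pair each time, while the groups overlapped. The difference was −0.25 (standard error 0.08, interval −0.44 to −0.06), a fold of 0.839, with an unadjusted p = 0.018 and an adjusted p = 0.474 in limma. The p in limma was 0.103 without experiment 2, 0.0875 without experiment 3 and 0.28 without the block by experiment, and so missed the threshold each time. It was 0.0155 without experiment 1, at a difference of −0.30. In plain comparisons it was 0.0388 paired and 0.401 one-way. Without the block, leaving out 1 array gave between −0.44 (without control replicate 1) and −0.08 (without control replicate 3) and no p under the threshold. It was −0.11 without DAPT replicate 1 and −0.40 without DAPT replicate 3.

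Vessel markers were read beside *Sema3g*. The mean log2 signal of 12 endothelial markers was 7.65, 8.11 and 8.35 in DAPT pools and 7.37, 8.13 and 8.40 in control pools. At an unadjusted p under 0.05, 1 of these 12 was higher (*Kdr*, 8.33%, background 5.27%) and 1 was lower (*Flt1*, 8.33%, background 2.59%). The mean of 12 pericyte and smooth muscle markers was 7.95, 8.10 and 8.03 in DAPT pools and 8.02, 8.38 and 8.36 in control pools. At the same threshold 5 of the 12 were lower (41.7%, background 2.59%) and 1 was higher (8.33%, background 5.27%). The lower ones were *Abcc9* (−0.90), *Kcnj8* (−0.63), *Rgs5* (−0.57), *Pdgfrb* (−0.53, standard error 0.11) and *Notch3* (−0.28), and the higher one was *Des* (0.22). Pericytes share *Pdgfrb* with mesenchymal cells, and *Notch3* was also counted among the Notch effectors. The paper names *Pdgfrb*, *Rgs5* and *Flt1* among genes lowered by DAPT on these same arrays. The marker lists were chosen with earlier results known, so these counts are not independent of that result. *Cspg4*, another pericyte marker, had a difference of −0.04 and *Myh11*, a smooth muscle myosin, −0.02. The part of these cells in the *Sema3g* value was not tested.

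*Ntn1* encodes netrin-1, a laminin-related cue that the inner ear also needs to form its semicircular canals. Its log2 signal was 7.83, 7.93 and 7.99 in DAPT pools, against 7.76, 7.68 and 7.68 in control pools. All DAPT values lay above all control values, as for 4.94% of all genes, and *Ntn1* was the 1 guidance gene of that kind. The difference was 0.21 (standard error 0.08, interval 0.01 to 0.42), a fold of 1.16, with an unadjusted p = 0.045 and an adjusted p = 0.619 in limma. The p was 0.185 without experiment 2, 0.193 without experiment 3, 0.0502 after another quantile normalization, 0.056 after median centring and 0.0557 with the cluster of largest variance for every gene. It was 0.0211 without experiment 1, at a difference of 0.28. In plain comparisons it was 0.0993 paired and 0.0172 one-way. Without the block in limma it was 0.0459. In that unblocked fit it missed the threshold when any single array other than DAPT replicate 1 was left out, at 0.0533 to 0.125, and was 0.034 without DAPT replicate 1. *Ntn4*, the other netrin, had a difference of −0.02 (standard error 0.08, interval −0.21 to 0.17).

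**Figure D2:**
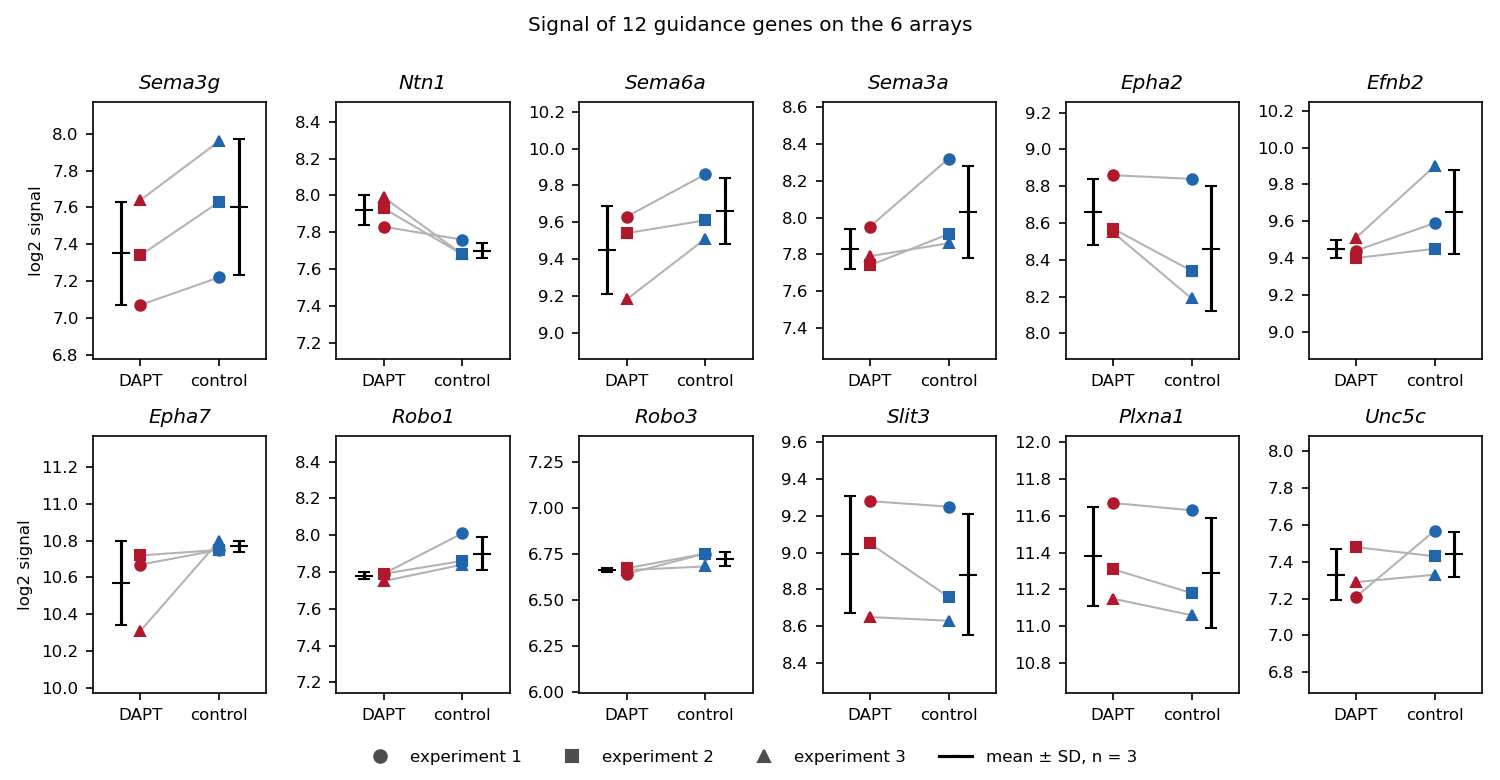
Log2 signal of 12 guidance genes on the 6 arrays, DAPT left and control right, with grey lines joining the pools of an experiment and bars giving mean ± SD (n = 3). Each axis spans 1.4 log2 units. *Ntn1*, *Epha7*, *Robo1* and *Robo3* show groups that do not overlap, and *Sema3g* shows parallel lines at different heights.

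Netrin receptors showed no common direction. *Dcc*, the receptor for attraction, had 5.71, 5.94 and 6.30 in DAPT pools, against 5.65, 5.99 and 6.09 in control pools, and the groups overlapped. *Unc5b*, a receptor for repulsion that vessels also use, had 10.78, 10.28 and 10.01 in DAPT pools, against 10.61, 10.19 and 10.19 in control pools. *Unc5c*, its relative in neurons, had 7.21, 7.48 and 7.29 in DAPT pools, against 7.57, 7.43 and 7.33 in control pools. The differences were 0.08 (interval −0.13 to 0.28), 0.03 (interval −0.21 to 0.26) and −0.12 (interval −0.37 to 0.14), in the order given, and each had 1 experiment of opposite sign.

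Among other semaphorins *Sema6a* and *Sema3a* came nearest to the threshold. *Sema6a*, a transmembrane semaphorin that binds plexins of class A, had 9.63, 9.54 and 9.18 in DAPT pools, against 9.86, 9.61 and 9.51 in control pools. Its difference was −0.21 (standard error 0.08, unadjusted p = 0.0513 in limma), with the DAPT pool lower in each experiment. *Sema3a*, a repellent of sensory axons, had 7.95, 7.74 and 7.79 in DAPT pools, against 8.32, 7.91 and 7.86 in control pools. The difference was −0.20 (standard error 0.09, interval −0.42 to 0.02, unadjusted p = 0.0629 in limma), again lower with DAPT each time though the groups overlapped. After median centring of the arrays the p was 0.0395 for *Sema6a* and 0.0486 for *Sema3a*. With the signal filter above the 25th percentile it was 0.0452 for *Sema6a*. Above the median signal it was 0.0434, and *Sema6a* was then the 1 guidance gene called lower, since *Sema3g* lay below that filter.

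*Sema3f*, a repellent for fibers of spiral ganglion neurons, had 10.13, 9.77 and 9.42 in DAPT pools, against 9.95, 9.78 and 9.54 in control pools. The groups overlapped, and the difference was 0.02 (standard error 0.09, interval −0.19 to 0.24). *Sema3c* and *Sema3e*, secreted class 3 members like *Sema3a*, were lower with DAPT in experiment 1 (−0.15 and −0.17) and higher in experiments 2 and 3. *Sema3c* had 0.36 and 0.31 there, and *Sema3e* 0.25 and 0.42. Without experiment 1 their unadjusted p in limma was 0.0109 and 0.0158, at a difference of 0.34 each, against 0.19 and 0.229 with all experiments. *Sema3b*, *Sema3d*, *Sema4a*, *Sema4d* and *Sema6d* lay between −0.09 and 0.08.

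Plexins and the measured neuropilin had differences between −0.08 and 0.09. *Plxna1*, a plexin of class A, had 11.67, 11.31 and 11.15 in DAPT pools, against 11.63, 11.18 and 11.06 in control pools. The DAPT pool was slightly higher each time, with a difference of 0.09 (standard error 0.07, interval −0.09 to 0.27). *Nrp1*, the co-receptor of *Sema3a*, had 6.86, 7.33 and 7.44 in DAPT pools, against 6.99, 7.27 and 7.60 in control pools, and the groups overlapped. Its difference was −0.08 (standard error 0.08, interval −0.28 to 0.12). *Plxna2*, *Plxna3* and *Plxna4* had 0.08, 0.08 and −0.04.

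Among Eph receptors *Epha2* and *Epha7* had the widest differences. *Epha2*, a receptor of epithelia, had 8.86, 8.57 and 8.55 in DAPT pools, against 8.84, 8.34 and 8.19 in control pools. The DAPT pool was higher each time, by 0.02, 0.23 and 0.36. The fitted difference was 0.21 (standard error 0.09, interval −0.02 to 0.43, unadjusted p = 0.0694 in limma), and p was 0.0205 without experiment 1. A second, dimmer cluster of *Epha2* had a difference of 0.17 (standard error 0.09).

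*Epha7* had 10.67, 10.72 and 10.31 in DAPT pools, against 10.75, 10.75 and 10.80 in control pools. All DAPT values lay below all control values, but −0.49 of experiment 3 stood beside −0.08 and −0.03 in experiments 1 and 2. The fitted difference was −0.20 (standard error 0.11, interval −0.48 to 0.08, unadjusted p = 0.126 in limma). *Epha4*, which helps to bundle spiral ganglion fibers, had 8.81, 9.16 and 9.01 in DAPT pools, against 8.83, 9.16 and 9.24 in control pools. The groups overlapped, and the difference was −0.09 (standard error 0.08, interval −0.29 to 0.12). The other 9 receptors (*Epha1*, *Epha3*, *Epha5*, *Epha6*, *Epha8*, *Epha10*, *Ephb1*, *Ephb3* and *Ephb4*) had differences between −0.07 and 0.09.

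Of the ephrins *Efnb2*, a transmembrane ligand and a known Notch target in arteries, had the widest difference. It had 9.44, 9.40 and 9.51 in DAPT pools, against 9.59, 9.45 and 9.90 in control pools. DAPT was lower each time, and the groups overlapped by the control pool of experiment 2. The difference was −0.19 (standard error 0.09, interval −0.42 to 0.03, unadjusted p = 0.0823 in limma). *Efna5*, a repellent for spiral ganglion fibers, had 7.42, 7.35 and 7.68 in DAPT pools, against 7.63, 7.33 and 7.54 in control pools. The sign differed between experiments, and the difference was −0.02 (standard error 0.09, interval −0.25 to 0.21). The remaining ephrins (*Efna1*, *Efna2*, *Efna3*, *Efna4*, *Efnb1* and *Efnb3*) lay between −0.01 and 0.10.

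*Robo1* and *Robo3* had DAPT values below their control values, while *Robo2* had no common sign over the experiments. *Robo1* had 7.79, 7.79 and 7.75 in DAPT pools, against 8.01, 7.86 and 7.84 in control pools. *Robo3*, a divergent member of the family, had 6.64, 6.67 and 6.66 in DAPT pools, against 6.75, 6.75 and 6.68 in control pools. With *Epha7* these were the 3 guidance genes whose DAPT values all lay below their control values (6.25%, background 2.35%). The differences were nonetheless small, −0.12 (interval −0.31 to 0.07) for *Robo1* and −0.07 (interval −0.25 to 0.11) for *Robo3*. *Robo2*, which with *Slit2* helps to place spiral ganglion neurons, had 7.44, 7.57 and 7.59 in DAPT pools, against 7.61, 7.49 and 7.51 in control pools. Its difference was −0.01 (interval −0.22 to 0.21), with 1 experiment below 0 and 2 above, and was 0.08 without experiment 1.

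*Slit2*, a secreted ligand of these receptors, had 7.61, 7.69 and 7.82 in DAPT pools, against 7.70, 7.60 and 7.87 in control pools. The groups overlapped, and the difference was −0.01 (interval −0.21 to 0.18). *Slit3* had 9.28, 9.05 and 8.65 in DAPT pools, against 9.25, 8.76 and 8.63 in control pools. DAPT was higher each time, by 0.29 in experiment 2 and by 0.03 and 0.02 in experiments 1 and 3, and the fitted difference was 0.11 (interval −0.11 to 0.33). *Slit1* had 0.09.

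Agreement of sign over the 3 experiments was counted without a test. With DAPT 11 of the 48 genes were higher in all 3 experiments (22.9%, background 19.1%) and 9 were lower in all 3 (18.8%, background 10.5%). The 9 lower ones were *Efnb2*, *Epha4*, *Epha7*, *Robo1*, *Robo3*, *Sema3a*, *Sema3g*, *Sema6a* and *Sema6d*. Signs were taken from unrounded values with no tolerance, and the differences of *Epha4* and *Sema6d* in experiment 2 rounded to 0. Across the 48 genes the differences of experiments 2 and 3 correlated at Pearson r = 0.52, beside 0.28 across all genes. Those of experiments 1 and 2 correlated at 0.11 (0.057 across all genes), and those of experiments 1 and 3 at 0.068 (−0.0013 across all genes). These are descriptions across genes, which are not independent replicates and share the 6 arrays.

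**Figure D3:**
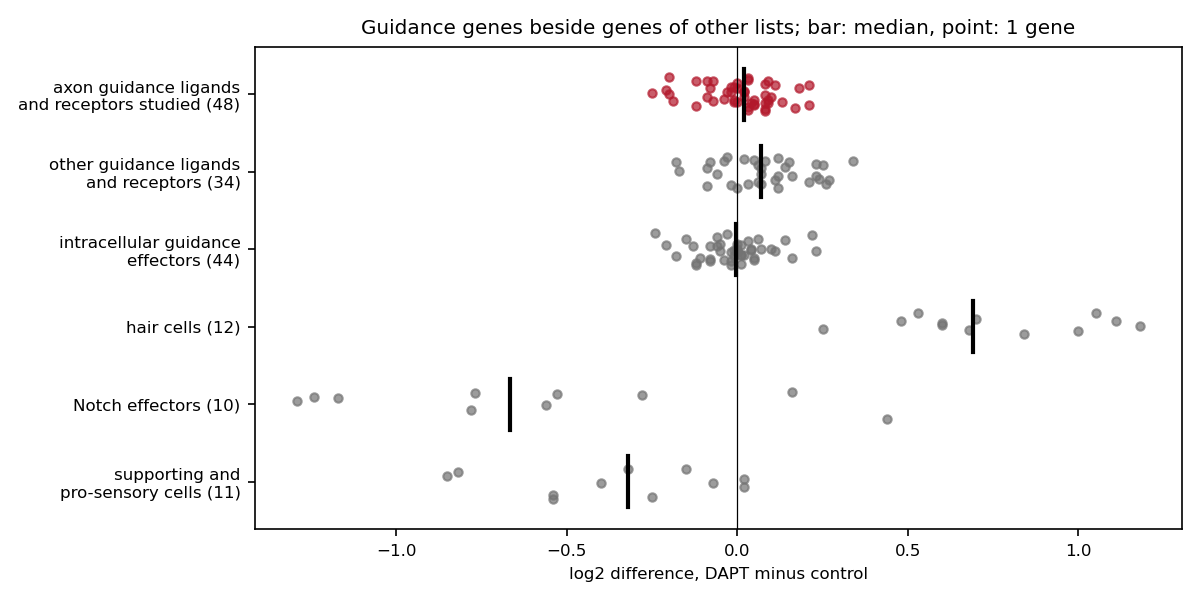
Log2 difference, DAPT minus control, for each of the 48 guidance genes and for genes of 5 other lists, with a black bar at each median. The guidance genes lie between −0.25 and 0.21 around a median of 0.02. The medians are 0.69 for HC genes, −0.66 for Notch effectors and −0.32 for supporting and pro-sensory genes. Most HC and Notch effector genes shown, and *Sox2*, *Prox1*, *Lfng* and *Fgf20*, were reported by the paper as changed on these same arrays.

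The rest of the guidance pathway gave a mixed picture. Of 34 other guidance ligands and receptors, 6 were higher at an unadjusted p under 0.05 in limma (17.6%, background 5.27%), none was lower and none passed the adjusted threshold. Their median was 0.07. *Plxnd1*, a plexin of endothelial cells, had 9.85, 10.15 and 10.34 in DAPT pools, against 9.29, 9.91 and 10.12 in control pools, a difference of 0.34 (standard error 0.10). *Sema6b* had 0.25, *Sema5b* 0.24 and *Robo4*, an endothelial Robo, 0.27, and *Plxnb3* and *Sema7a* were the others. The count was 5, 2 and 4 when experiments 1, 2 and 3 were left out in turn, and 0 without the block. In that unblocked fit it was 0 to 2 when a single array was left out. The mean of the endothelial markers differed by 0.27 in experiment 1, −0.02 in experiment 2 and −0.05 in experiment 3, and their part in the values of *Plxnd1* and *Robo4* was not tested. Of 44 intracellular effectors of guidance signaling, such as small GTPases and collapsin response mediators, 0 had an unadjusted p under 0.05 in limma (1 higher and 1 lower in each plain comparison), and the median was −0.01. The clusters used for *Rhoa*, *Rac1*, *Nck2* and *Arhgef12* of this list stand in the order of the array among genes of other chromosomes, so these readings need caution.

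Guidance genes also differed in level between the experiments. The mean of the pair of pools ranged over the 3 experiments by 0.03 to 0.96, with a median range of 0.26 for the guidance genes and 0.22 for all genes. In an F test of the experiment terms in limma, added after the data were seen, 5 genes passed an adjusted p of 0.05 (10.4%, background 5.17%). They were *Plxna4*, *Epha1*, *Sema3g*, *Sema5a* and *Plxna1*, with adjusted p = 0.0315, 0.0355, 0.0406, 0.0409 and 0.0487 in limma. The count was 0 without experiment 1 (background 0.00494%), 4 without experiment 2 (background 4.47%) and 1 without experiment 3 (background 2.17%).

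*Plxna4*, a plexin of class A, had a mean of 9.62 in experiment 1, 8.65 in experiment 2 and 8.78 in experiment 3. *Epha1* had 8.35, 7.91 and 7.66 and *Plxna1* 11.65, 11.24 and 11.11. *Sema3g* was ordered the other way, with 7.14, 7.49 and 7.80. The cluster used for *Sema5a*, at 11.46, 10.88 and 11.02, needs caution. Its neighbors in the order of the array are genes of chromosome 2 (16 of 20), whereas *Sema5a* is a gene of chromosome 15, and the other cluster of that name had a difference of 0.01 with DAPT, against 0.13 in the cluster used.

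Of the 48 genes, 16 were highest in experiment 1 and lowest in experiment 3 (33.3%, background 22.4%), among them *Unc5b*, *Sema3f*, *Slit3* and *Epha2*. In the opposite order were 12 (25%, background 20.6%), among them *Nrp1*, *Dcc*, *Sema3e* and *Slit1*. Marker lists differed between experiments as well. The mean of 10 epithelial markers was 10.43, 10.18 and 9.86 in experiments 1, 2 and 3. Means for 14 mesenchymal markers were 8.69, 9.18 and 9.53, for 12 endothelial markers 7.51, 8.12 and 8.37 and for 20 neuronal markers 7.65, 8.24 and 8.30. Neuronal markers did not all move alike. *Nefl*, a neurofilament gene, ran from 8.92 (control, experiment 1) to 10.91 (DAPT, experiment 3) over the 6 arrays. *Uchl1* went the other way, from 10.96 and 10.85 (DAPT and control, experiment 1) to 10.36 and 10.55 (experiment 3). The neuronal mean also includes *Tubb3*, whose cluster stands in the order of the array among genes of another chromosome. The part of these cells in the levels of the guidance genes was not tested, and culture time cannot be told apart from other differences between experiments.

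**Figure D4:**
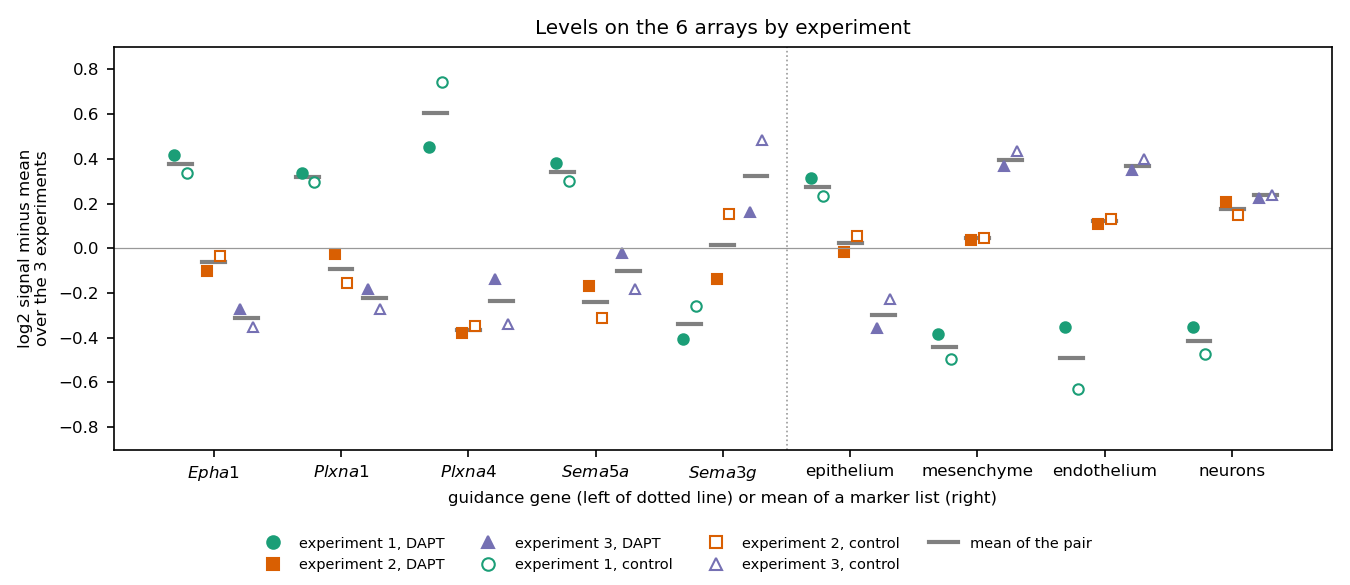
Log2 signal on each array minus the mean over the 3 experiments, for the 5 guidance genes that differed between experiments and for the means of 4 marker lists. Filled points are DAPT and open points control pools, and grey bars the mean of the pair. *Epha1* and *Plxna1* are highest in experiment 1 and lowest in experiment 3, as is the mean of the epithelial markers. *Plxna4* and *Sema5a* are also highest in experiment 1 but lowest in experiment 2. *Sema3g* is highest in experiment 3, as are the means of the mesenchymal, endothelial and neuronal markers.

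Promoters were read for the core of sites bound by RBPJ, the DNA-binding partner of Notch, because this feature had no part in choosing the genes. RefSeq promoters (GRCm38.p6, 250 bases before to 50 after the start) were held for 39 of the 48 genes. The core TGGGAA, on either strand, was in 12 of these 39 (30.8%) and in 27.2% of the 15650 array genes with a promoter. CACGTG, an E box that Hes and Hey repressors can bind, was in 4 of 39 (10.3%, against 9.71% of array genes), and CAGCTG, another E box, in 6 (15.4%, against 18.3%). Shown are *Sema3g*, the gene with the smallest p, and *Epha7*, the only one of the non-overlapping genes with a promoter in the table whose promoter holds the core, each 5′ to 3′ on the strand of the gene with the core in capitals. The core is read on the opposite strand in *Sema3g* (printed as TTCCCA, first base at position 31 from the start) and on the gene's own strand in *Epha7* (first base at position −93).
*Sema3g*, chr14:31217623-31217922, plus strand: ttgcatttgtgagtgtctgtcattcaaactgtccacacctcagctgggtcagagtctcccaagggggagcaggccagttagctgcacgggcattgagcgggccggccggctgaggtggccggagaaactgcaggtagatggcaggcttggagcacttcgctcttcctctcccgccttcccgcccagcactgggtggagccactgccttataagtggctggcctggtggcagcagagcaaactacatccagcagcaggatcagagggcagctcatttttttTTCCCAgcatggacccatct
*Epha7*, chr4:28812881-28813180, plus strand: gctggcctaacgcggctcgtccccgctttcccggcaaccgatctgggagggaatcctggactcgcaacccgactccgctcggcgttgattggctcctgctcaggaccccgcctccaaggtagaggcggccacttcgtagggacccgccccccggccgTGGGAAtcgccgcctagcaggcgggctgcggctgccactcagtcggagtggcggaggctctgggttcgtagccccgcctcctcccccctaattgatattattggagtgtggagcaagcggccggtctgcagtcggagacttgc
A match gives these letters and no evidence of binding. The promoters of *Robo1* and *Robo3* did not hold the core in this window.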

How the data were processed

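RNA of 6 pools of cochlear epithelium, 3 DAPT and 3 control, was hybridized to Affymetrix Mouse Exon 1.0 ST arrays. The deposited values are the authors' log2 signals, made in Partek by RMA, which includes quantile normalization, with mm9 named in the submitters' notes. Of 115830 clusters, 25539 carried 1 gene in the platform annotation, and 24941 of these received a current symbol from the GRCm38.p6 gene table. The cluster with the highest mean stood for a gene. Array medians lay between 6.297 and 6.364. Precision is limited by the number of arrays.

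Differences were tested in limma 3.58.1 (R 4.3.3) with a block for each experiment, and p-values were adjusted by Benjamini-Hochberg over all 20259 genes. The block follows the 1 DAPT and 1 control pool of each experiment, whereas the paper used a one-way ANOVA model. Deviations of same-numbered pools correlated across genes at 0.556, 0.434 and 0.513. Genes named with array values had an unadjusted p under 0.05, the widest difference of a subfamily, a known cochlear role, groups that did not overlap or a place near the threshold; the last 2 kinds were chosen after their values were seen. The test was checked on simulated data drawn from its own noise model, so the check does not test that model's assumptions. The genes and lists were chosen with earlier results of these data known. Alternatives covered the block, prior, scaling, filters, cluster choice and omitted pools. Tables and figures used pandas 2.3.3, scipy 1.17.1 and matplotlib 3.10.9.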

Additional observations from a re-analysis of the deposited data

How the results depend on the processing

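The adjusted p stayed above 0.05 for every guidance gene, in limma and in the plain comparisons, under any of the alternatives that were run. At an unadjusted p under 0.05 the counts of guidance genes moved by a few. With higher DAPT values there were 2 in the plain paired comparison (*Efna2* and the doubtful cluster of *Sema5a*, without *Ntn1*), 0 after another quantile normalization, after median centring and with the cluster of largest variance, and 3 with array weights. With lower values there were 0 in the fit without the replicate block and in the plain one-way comparison, 3 after median centring and 2 above the 25th percentile of signal (*Sema3g* and *Sema6a*). Above the median signal the 1 lower gene was *Sema6a* in place of *Sema3g*, which was not tested there. Leaving out an experiment or an array gave 0 to 4 higher and 0 to 1 lower, the 4 without experiment 1. The differences of *Sema3g* (−0.44 to −0.08) and *Ntn1* (0.16 to 0.28) kept their sign throughout.

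Over all genes the higher and lower counts were 394 and 199 without the block, 490 and 215 in the plain one-way comparison, 471 and 333 above the median signal and 1629 and 914 with array weights. Another quantile normalization turned the main split of 1067 and 525 into 881 and 716. Leaving out an experiment or array gave 265 to 1359 higher and 136 to 946 lower. After adjustment 6 genes passed with a trend and robust prior, 26 above the median signal, 17 above the 25th percentile, 6 with the mean of all clusters and 30 with array weights. Of the other guidance ligands and receptors, 0 were higher without the block and in the plain one-way comparison, 0 to 5 with pools left out, and 1 was lower after another quantile normalization and with array weights. Of the intracellular effectors, 1 was higher in each plain comparison and 3 with array weights, and 1 was lower in each plain comparison, after either scaling, with the mean of all clusters, with the cluster of largest variance and with array weights. With pools left out 0 to 1 effector was higher and 0 to 1 lower. Leaving out an experiment changed the 5 genes that differed between experiments to 0 to 4. The cause of these changes was not tested, other than fewer genes under the filters and fewer arrays where pools were left out.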

Other observations

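Further clusters of 7 guidance genes gave a second reading of the same gene. There were 8 such clusters, with differences between −0.10 and 0.17, and none had an unadjusted p under 0.05 in limma. The second cluster of *Plxna4* had 8.92, 8.53 and 8.85 in DAPT pools, against 9.13, 8.50 and 8.73 in control pools, and was again highest in experiment 1. The second cluster of *Sema5a*, in contrast, had 8.73 to 9.21 in DAPT pools and 8.75 to 9.11 in control pools, and was lowest in experiment 1, where the brighter cluster of that name was highest. Only *Sema5a* among the 48 genes had its used cluster placed among genes of another chromosome. Of the other lists, the clusters used for *Tubb3* (neurons) and for *Rhoa*, *Rac1*, *Nck2* and *Arhgef12* (intracellular effectors) were placed likewise.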
